A study of Homo sapiens with 6 samples.

Results

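The oncofetal genes described here are the 3 IGF2 mRNA-binding proteins IGF2BP1, IGF2BP2 and IGF2BP3, the 2 LIN28 paralogs LIN28A and LIN28B, and the 2 high mobility group A genes HMGA1 and HMGA2. They were chosen by name, as genes of the circuit that the let-7 microRNAs hold down, and make up 7 of the 58174 genes in the deposited table. The cells were KNS42, a cell line derived from a pediatric glioblastoma (GBM). Cultures were transfected with a control siRNA (siC, n = 3) or with an siRNA pool against MSI1 (siMSI1, n = 3), and polyA RNA was taken 72 h later for strand-specific sequencing. MSI1 encodes Musashi1, an RNA-binding protein of neural stem cells that binds mRNAs mainly in their 3′UTRs, and the design asks which mRNAs change when it is depleted. All cultures were of this single line and differed, per the labels, in the siRNA alone.

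The genes belong to one regulatory loop. LIN28A and LIN28B bind precursors of let-7 and block their maturation. Mature let-7, abundant in differentiated tissue, in turn represses LIN28B, HMGA2 and IGF2BP mRNAs. Apart from IGF2BP2, which remains expressed in adult tissue, these are high in the embryo, low in most adult tissue and often high again in tumors. IGF2BPs are cytoplasmic proteins that bind and stabilize their client mRNAs, whereas HMGA proteins are small chromatin proteins that bind AT-rich DNA and help transcription factors assemble.

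The let-7 sequences and the sites they can pair with are shown first, since the 7 genes were chosen as let-7 targets or partners. RefSeq (GRCh38.p14) holds 12 human loci of the family that give 9 distinct mature microRNAs from the 5p arm, let-7a to let-7g, let-7i and miR-98. All 9 share the seed, bases 2 to 8, printed in capitals. 3 of them are shown because they differ outside the seed only.
hsa-let-7a-5p: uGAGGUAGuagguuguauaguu
hsa-let-7g-5p: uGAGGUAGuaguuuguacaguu
hsa-miR-98-5p: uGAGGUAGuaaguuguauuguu

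A 3′UTR can pair with this seed where it reads CTACCTC on the mRNA strand (a 7-base match), or CTACCTCA (an 8-base match, which contains the 7-base one). Over all annotated protein-coding transcripts (GENCODE 44), each of the 7 genes holds at least 1 such match and together they hold 16. In the same count, 13.3% of 11281 protein-coding genes measured in these cells hold a 7-base match and 5.30% an 8-base match. The genes were chosen for their place in the let-7 circuit, so nothing is read from this difference. The count over all transcripts was added after the longest 3′UTR of HMGA2 had shown no match. One site of each gene, the 8-base match nearest the stop codon or, for HMGA1, its single 7-base match, is given below with the match in capitals. Coordinates are GRCh38, and the strand is that of the mRNA.
IGF2BP1, chr17:49051062-49051083, plus strand: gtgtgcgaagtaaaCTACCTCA
IGF2BP2, chr3:185644220-185644241, minus strand: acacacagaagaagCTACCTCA
IGF2BP3, chr7:23311795-23311816, minus strand: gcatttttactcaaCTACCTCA
LIN28A, chr1:26427349-26427370, plus strand: cacagcctattgaaCTACCTCA
LIN28B, chr6:105078813-105078834, plus strand: cccggttgcaaagtCTACCTCA
HMGA1, chr6:34245830-34245851, plus strand: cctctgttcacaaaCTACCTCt
HMGA2, chr12:65963299-65963320, plus strand: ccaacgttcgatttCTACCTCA

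The genes differed in how many matches they hold and in the bases around them. IGF2BP1 has a 3′UTR of 6701 bases with 4 matches, of which 3 have 8 bases. LIN28B also has 4 matches, 2 of them of 8 bases, in 4549 bases. HMGA2 has 4 matches, 1 of them of 8 bases, in a 3′UTR of 2999 bases, but its longest annotated 3′UTR, 7421 bases in another transcript, has none. IGF2BP2, IGF2BP3 and LIN28A have a single 8-base match each, and HMGA1 a single 7-base match. Long 3′UTRs hold a match more often. Among 3′UTRs within 1.25-fold of the IGF2BP1 length, 31.7% have a 7-base and 12.7% an 8-base match. Mature let-7 is not captured in polyA libraries, and whether any site was occupied was not tested. The study also profiled microRNAs of KNS42 cells by small RNA sequencing, and those values were not used here.

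**Figure D1:**
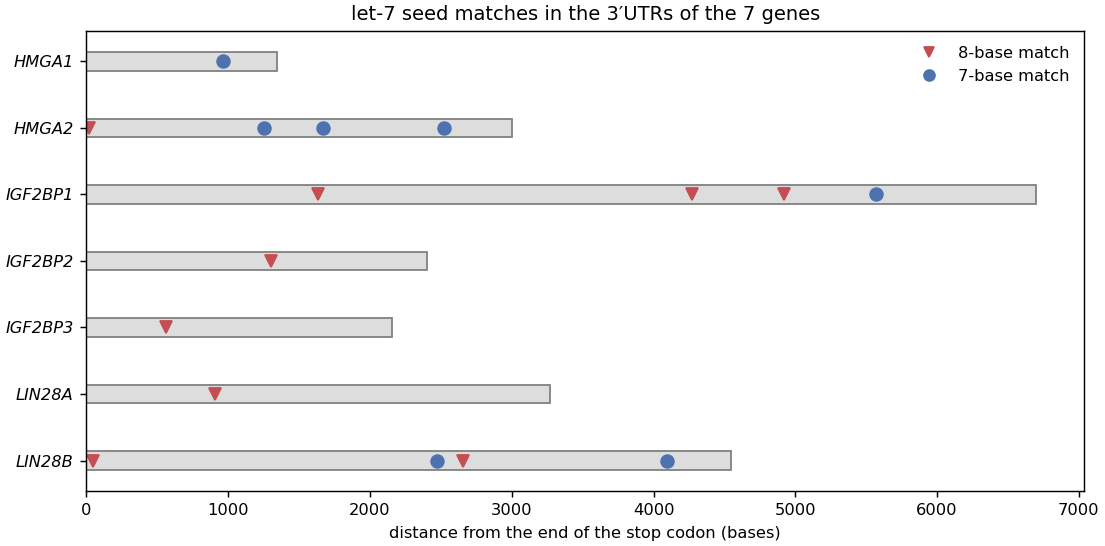
Position of let-7 seed matches along the 3′UTR of each of the 7 genes. Grey bars run from the stop codon to the 3′UTR end in bases for the transcript that holds the matches; red triangles mark 8-base and blue circles 7-base matches. IGF2BP1, LIN28B and HMGA2 carry 4 matches each and the other genes 1 each.

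The knockdown was clear in each library. The siC libraries held MSI1 at 63.7, 61.9 and 66.9 FPKM (fragments scaled to gene length and library depth) and the siMSI1 libraries at 12.1, 12.3 and 11.2 FPKM, which left 18.5% of the siC mean (log2 fold change -2.43, SE 0.0668, adjusted p = 8.7e-06, limma). Libraries held 13087025 to 18024080 reads on genes. Of 10 glioma and neural progenitor markers 9 were measured well enough to test, with SOX2 at 300.6 ± 4.61 FPKM in siC, and OLIG2 was at 0. Defining markers of oligodendrocytes, of microglia and blood and of endothelium summed to at most 1.09 FPKM in any library. The epithelial list summed to 19.1 to 26.0 FPKM, mostly from KRT18, and the fibroblast and pericyte list to 2.55 to 5.73 FPKM, and no gene of either passed the test. The neuronal list summed to 17.7 to 18.4 FPKM in siC and 12.6 to 13.7 FPKM in siMSI1, mostly from SYP, with RBFOX3 at 0. Of the glioma list SOX9, CD44 and FABP7 were lower and GFAP was higher in siMSI1, and the neuronal marker SYP was lower. Any part of these shifts in the values below was not tested, and in a bulk culture fewer expressing cells and less RNA per cell cannot be told apart.

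In KNS42 cells, IGF2BP genes and HMGA1 were expressed, whereas LIN28A, LIN28B and HMGA2 were at or near the limit of detection. Of the 7 genes 4 were tested, and by limma on FPKM none of these passed the threshold (adjusted p of at most 0.01). The study applied the same cut-off to false discovery rates from edgeR, which were not used here. By limma 0 were called, 1 had an unadjusted p under 0.05 and 1 was called by voom on recovered reads (18.7% of all tested genes in either direction), HMGA1 in both cases. Ranked by unadjusted limma p (0.00814), HMGA1 stood at place 3301 among all 15069 tested genes. Every gene ahead of it thus also had an unadjusted p under 0.05, and the full share at that cut-off is not given. Nothing is read from the count of 1. Across all 15069 tested genes 11.0% passed the threshold. HMGA1 came closest, with higher levels in all 3 siMSI1 libraries. IGF2BP1, IGF2BP2 and IGF2BP3 had siMSI1 means of 96.2%, 88.9% and 94.6% of siC, each within the spread between replicates. Tests were made with limma on log2(FPKM + 0.1) for genes with a mean of at least 0.5 FPKM, which 4 of the 7 genes reached. The median log2 fold change of these 4 was -0.07, against 1.46e-05 for all tested genes.

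**Figure D2:**
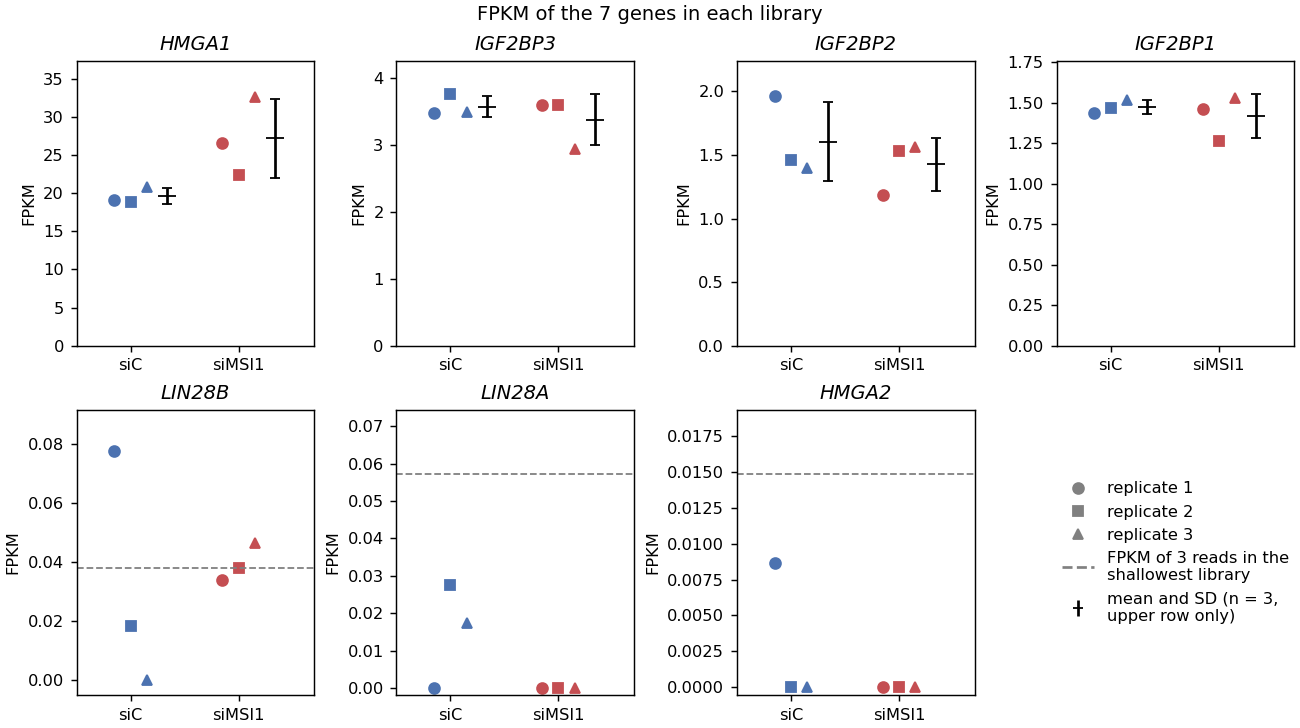
FPKM of the 7 genes by siRNA group, 1 point per library with a marker shape per replicate number; black bars give the mean and SD (n = 3) for the 4 tested genes, and dashed lines the FPKM of 3 reads in the shallowest library. The siMSI1 libraries lie above the siC libraries for HMGA1 alone among the tested genes, and LIN28A and HMGA2 stay under the 3-read line.

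Per length of gene, the order of levels over all 6 libraries was HMGA1 with a mean of 23.4 FPKM, IGF2BP3 with 3.47, IGF2BP2 with 1.52 and IGF2BP1 with 1.45. HMGA1 thus ranked above 88.9% of the 19799 protein-coding genes in the table, IGF2BP3 above 59.0%, and the other two IGF2BPs close to the middle. No library of IGF2BP3 came as low as the highest of IGF2BP2, and HMGA1 was above IGF2BP3 throughout. The values of IGF2BP1 and IGF2BP2 overlapped and their order was not resolved. LIN28B, LIN28A and HMGA2 followed with means of 0.0358, 0.00749 and 0.00144 FPKM, among which no order can be read from so few reads.

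IGF2BP1 (ENSG00000159217, chr17:48997385-49056145, plus strand) encodes the paralog best known as a fetal stabilizer of MYC and other tumor mRNAs. Its level was 1.44, 1.47 and 1.52 FPKM in the siC libraries and 1.46, 1.26 and 1.53 FPKM in the siMSI1 libraries, from 151 to 242 reads per library. The groups overlapped, with the second siMSI1 replicate lowest. The difference of 1.47 ± 0.0415 against 1.42 ± 0.137 FPKM (SD, n = 3 each) was -0.06 on the log2 scale (SE 0.140, adjusted p = 0.804, limma). The 95% interval of the fold, 0.768 to 1.20, still contains a moderate fall or rise.

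IGF2BP2 (ENSG00000073792, chr3:185643130-185825042, minus strand) is the paralog that remains expressed in adult tissue and has been tied to metabolism and to glioma stem cells. It was measured from 83 to 139 reads, the fewest of the family. With siC it stood at 1.96, 1.46 and 1.39 FPKM, with siMSI1 at 1.19, 1.53 and 1.56 FPKM. The first replicate was the highest of its group in siC and the lowest in siMSI1, and the groups overlapped. Means (SD, n = 3 each) were 1.60 ± 0.309 and 1.43 ± 0.206 FPKM, a log2 fold change of -0.15 (SE 0.183, adjusted p = 0.582, limma; 95% interval of the fold 0.670 to 1.21).

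IGF2BP3 (ENSG00000136231, chr7:23310209-23470491, minus strand), an oncofetal protein used as a tumor marker, was the most abundant of the family. The siC libraries had 3.47, 3.75 and 3.48 FPKM and the siMSI1 libraries 3.59, 3.59 and 2.94 FPKM, from 359 to 577 reads. A single siMSI1 library, the third replicate, lay below all siC libraries. The means of 3.57 ± 0.156 and 3.37 ± 0.377 FPKM (SD, n = 3 each) differed by -0.08 on the log2 scale (SE 0.111, adjusted p = 0.624, limma). Its fold interval was the narrowest of the family, 0.790 to 1.13.

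The make-up of the family was also compared, as the share of each paralog in the summed IGF2BP FPKM. IGF2BP3 gave 53.7 ± 2.85% in siC and 54.2 ± 4.74% in siMSI1. IGF2BP1 gave 22.2 ± 1.44% and 22.9 ± 2.83%, and IGF2BP2 24.1 ± 3.86% and 23.0 ± 3.51%. None of these differences in share exceeded the spread (exact two-sided permutation test over libraries, p = 0.8, 0.7 and 0.8 for IGF2BP3, IGF2BP2 and IGF2BP1, 3 values each group, not adjusted). With 3 libraries per group this test cannot go below 0.1. The summed level was 6.87, 6.68 and 6.39 FPKM for siC and 6.24, 6.39 and 6.03 FPKM for siMSI1, with means of 6.65 ± 0.240 and 6.22 ± 0.183 FPKM (SD, n = 3 each). Each siMSI1 library was below each siC library, although the closest pair, 6.389 and 6.392 FPKM, nearly met. The exact two-sided permutation test gave p = 0.1, the smallest it allows. Among single tested genes 21.4% had each siMSI1 library above each siC library, and the share below is not given here. No fall of the family is read from this lack of overlap.

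LIN28A (ENSG00000131914, chr1:26410817-26429728, plus strand), the cytoplasmic LIN28 paralog of pluripotent cells, had 0, 2 and 1 reads in the siC libraries and 0 reads in each siMSI1 library. LIN28B (ENSG00000187772, chr6:104936616-105083332, plus strand), the paralog more often reactivated in tumors, had 7, 2 and 0 reads in siC and 3, 3 and 4 in siMSI1. Both genes failed the filter on low values and were not tested. A count of 0 allows up to 3 reads, which correspond to 0.0414 to 0.0571 FPKM for LIN28A and 0.0276 to 0.0381 FPKM for LIN28B. Summed over libraries LIN28B had 9 reads in siC and 10 in siMSI1, a ratio of 1.25 after scaling for depth. The exact 95% Clopper-Pearson interval of that ratio, 0.456 to 3.47, covers counting error only, so that a difference in LIN28B was not detectable at this depth.

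HMGA2 (ENSG00000149948, chr12:65824460-65966291, plus strand), a classic let-7 target and an oncofetal chromatin gene, had 2 reads in the first siC replicate and 0 in the other 5 libraries. The 3 reads that a count of 0 allows correspond to 0.0108 to 0.0149 FPKM for the 15403 bases of gene model in the table. RPSAP52, a transcribed pseudogene antisense to the start of HMGA2, was at 0 in all libraries.

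HMGA1 (ENSG00000137309, chr6:34236873-34246231, plus strand), the HMGA gene of proliferating and tumor cells, was the single member whose groups did not overlap. The siC libraries had 19.05, 18.9 and 20.8 FPKM and the siMSI1 libraries 26.5, 22.4 and 32.6 FPKM, from 664 to 1089 reads. Each siMSI1 library was above each siC library, and siMSI1 libraries were the more scattered ones. The mean was 19.6 ± 1.06 FPKM with siC and 27.2 ± 5.13 FPKM with siMSI1 (SD, n = 3 each), or 139% of siC. The log2 fold change of 0.45 (SE 0.129, 95% interval 0.16 to 0.75) did not pass the threshold (adjusted p = 0.0372, limma). The exact permutation test gave p = 0.1, the smallest that 3 against 3 libraries allow. Of all tested genes, 21.4% had each siMSI1 library above each siC library and 12.2% were higher at an adjusted p of at most 0.05.

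**Figure D3:**
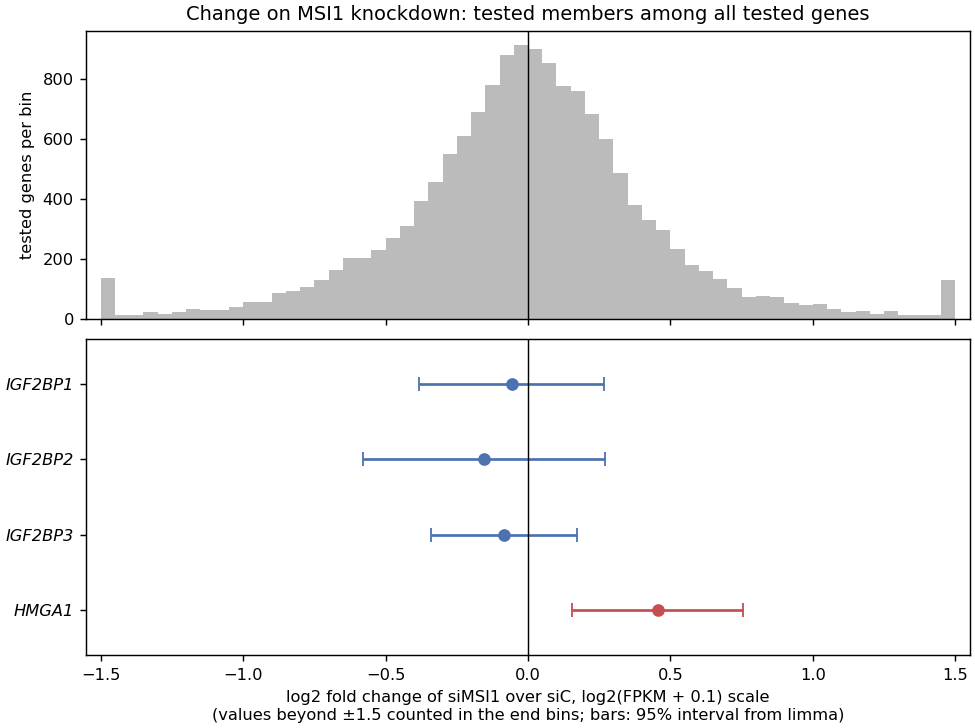
Upper panel, number of tested genes by log2 fold change of siMSI1 over siC; lower panel, log2 fold change (points) and 95% limma interval (bars) of the 4 tested genes on the same axis. The 3 IGF2BP intervals span 0, and the HMGA1 interval runs from 0.16 to 0.75 around 0.45.

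The HMGA1 difference depended on the test in size of p but not in direction. Over 16 alternative settings the log2 fold change ranged from 0.32 to 0.59 and the adjusted p from 2e-06 to 0.110. The threshold was passed in 2 of them, both limma voom fits on read counts recovered from the FPKM values. Voom without further terms gave a log2 fold change of 0.46 and an adjusted p of 0.00622, where 8.67% of tested genes were called higher, and voom with the replicate number as a block gave 2e-06, where 16.2% were called higher. Leaving out the third siMSI1 replicate, the highest of its group, gave the lowest value, 0.32 (adjusted p = 0.0433), and leaving out the second, the lowest of its group, the highest, 0.59 (adjusted p = 0.0132). The siMSI1 replicates had a coefficient of variation of 18.9%, against 5.40% in siC and the 3.39% that counting error would give.

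**Figure D4:**
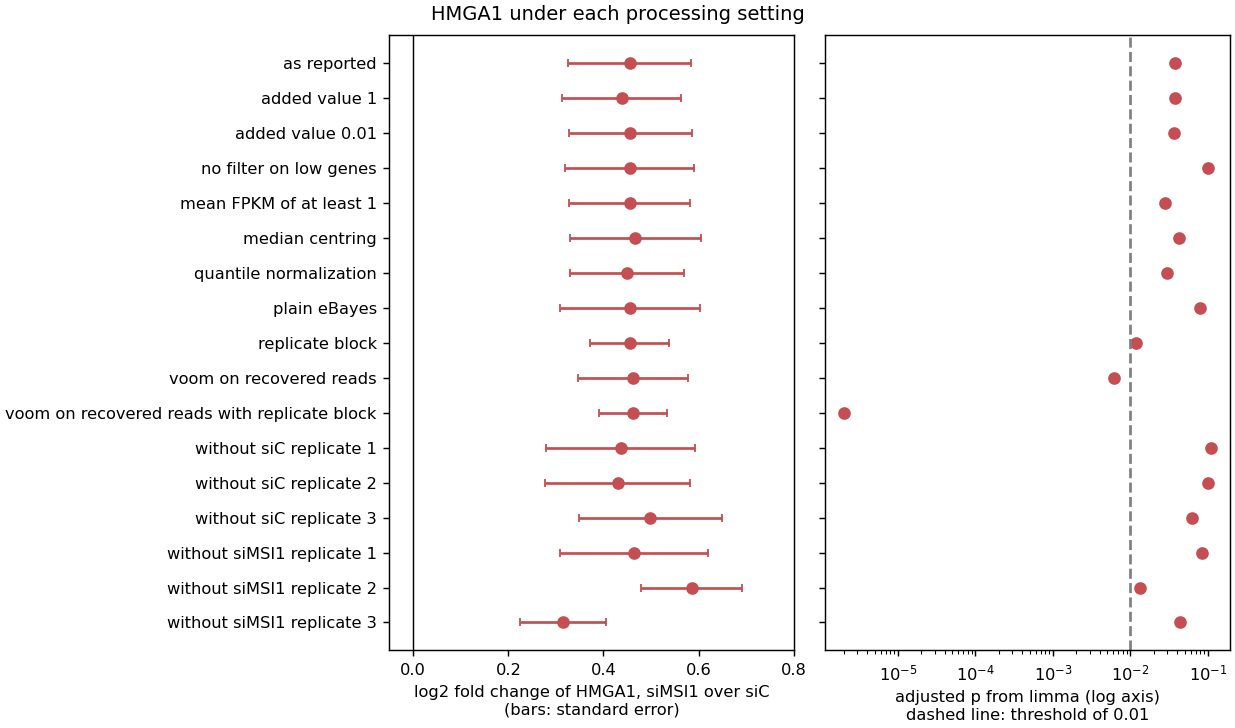
Log2 fold change of HMGA1 with its standard error (left) and adjusted p on a log axis (right) as reported and under 16 alternative settings; the dashed line marks the threshold of 0.01. All 17 fold changes are above 0, and 2 adjusted p-values, both from voom, lie left of the line.

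Neighbouring and copied genes, which can share reads with the 7 genes, were measured as well. The table holds 7 genes named as HMGA1 pseudogenes, and together they held 3 to 6 reads per library. HMGA1P8 carried nearly all of them, and its log2 fold change was 0.01 (adjusted p = 0.980, limma). MALSU1, a mitochondrial ribosome factor on the opposite strand, overlaps the end of IGF2BP3 and was measured at 10.3 to 11.1 FPKM (log2 fold change 0.04, adjusted p = 0.699). Whether counting used strand is not given in the sources used here, so reads from the MALSU1 overlap cannot be assigned with certainty. Of 27 such genes 20 were at 0 in all libraries, among them LIN28B.AS1 and IGF2BP2.AS1.

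Genes whose profile over the 6 libraries was most like that of a member were found by Pearson correlation of log2(FPKM + 0.1) among 7039 protein-coding genes with at least 5 FPKM. For HMGA1 these were PDIA4 (r = 0.997), CTSD (0.997) and RRP9 (0.995), for IGF2BP3 TMTC4 (0.993), ATG5 (0.989) and BNIP2 (0.989). AP4M1 (0.970), BEST1 (0.969) and PIM2 (0.966) were nearest to IGF2BP1, and ZNF398 (0.944), XPO7 (0.933) and FZD2 (0.930) to IGF2BP2. These are the highest of many values, each over 6 points that share library depth, and are given as a description.

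The genes that make let-7 were called about as often as genes in general. Of 20 genes for let-7 biogenesis and its control 19 were tested, 2 rose and none fell at the threshold (median log2 fold change 0.04), or 10.5% against 11.0% of all tested genes. ZC3H12A, an endoribonuclease that cleaves microRNA precursors, rose from 1.02 ± 0.231 to 2.08 ± 0.259 FPKM (log2 fold change 0.98, adjusted p = 0.00992). AGO4, an Argonaute protein that carries microRNAs, rose from 1.53 ± 0.0571 to 2.34 ± 0.112 FPKM (0.59, adjusted p = 0.00963). Among abundant members that did not pass, KHSRP, which promotes let-7 processing, showed a log2 fold change of -0.15 (adjusted p = 0.292) and HNRNPA1, which opposes it, of -0.11 (adjusted p = 0.290). HNRNPA1 has many near-identical pseudogenes and its count is less certain. None of the 4 tested host genes of let-7 loci passed the threshold (limma, 0 calls), and 0 did with voom, which called 18.7% of all tested genes. Their median log2 fold change was 0.22. At an adjusted p of at most 0.05 (limma) 2 were higher, as were 12.2% of all tested genes. At an unadjusted p under 0.05 there were 3, for which no share over all genes is given. HUWE1, whose introns hold let-7f-2 and miR-98, was at 21.9 FPKM in siC and 26.3 in siMSI1 (log2 fold change 0.26, adjusted p = 0.0385), and MIR100HG, host of a let-7a locus, at 16.9 and 19.2 FPKM (0.19, adjusted p = 0.103).

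Other known let-7 targets went both ways. Of 27 genes 24 were tested, 4 rose and 3 fell, or 29.2% against 11.0% of all tested genes. Their median log2 fold change was -0.03. MYCN, the neural MYC paralog, rose from 78.2 ± 2.33 to 120.3 ± 2.40 FPKM (log2 fold change 0.62, adjusted p = 0.000554). The cell-cycle factor E2F5 rose by 0.54 on the log2 scale (adjusted p = 0.00963) and the growth factor receptor gene IGF1R by 0.52 (adjusted p = 0.00253), besides AGO4, which this list also holds. E2F2, an activator of S-phase genes, showed a log2 fold change of -0.56 (adjusted p = 0.00470) and CDC25A, a phosphatase that drives S-phase entry, of -0.48 (adjusted p = 0.00403). CDC34 and NRAS, the most abundant targets not past the threshold, had values of 0.13 and 0.20.

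Among 24 reported IGF2BP client mRNAs 20 were tested, of which 1 rose and 4 fell (25% against 11.0% of all tested genes, median -0.06). E2F1 fell from 38.1 ± 4.09 to 20.5 ± 2.33 FPKM (log2 fold change -0.89, adjusted p = 0.00135). PEG10, an imprinted gene derived from a retrotransposon, fell from 401.1 ± 28.4 to 219.5 ± 7.99 FPKM (-0.87, adjusted p = 0.000426). The hyaluronan receptor CD44, the transcript the study centers on and thus no independent member, showed a log2 fold change of -0.46 (adjusted p = 0.00303), and the proliferation marker MKI67 of -0.41 (adjusted p = 0.00553). COL5A2, a fibrillar collagen chain, rose by 0.62 (adjusted p = 0.000915). ACTB, the first client described for the family, was at 0.02 (adjusted p = 0.919) and FSCN1 at -0.10 (adjusted p = 0.482). Of 31 genes for IGF2BP partners and the m6A machinery 28 were tested and 2 fell, none rose (7.14% against 11.0%, median -0.10). MATR3, counted as not tested, was read from a single entry (ENSG00000280987, mean 0.104 FPKM). Any other entry of that symbol was not looked up. ALKBH5, an m6A demethylase, showed a log2 fold change of -0.64 (adjusted p = 0.000976) and STAU1, a double-stranded RNA-binding protein, of -0.39 (adjusted p = 0.00335). YBX1, a cold shock domain protein found with IGF2BP1 in mRNA complexes, had a value of 0.22 and did not pass.

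For the chromatin side, 17 of 20 other high mobility group genes were tested, 2 rose and 1 fell (17.6% against 11.0% of all tested genes, median -0.04). TOX2, an HMG-box factor, rose from 2.19 ± 0.388 to 5.46 ± 0.722 FPKM (log2 fold change 1.29, adjusted p = 0.00133). The nucleosome-binding gene HMGN5 rose by 0.73 (adjusted p = 0.00127), and HMGB3 showed a log2 fold change of -0.53 (adjusted p = 0.00469). HMGN3 and SSRP1, the most abundant of the rest, were at -0.21 and 0.01. Of 20 reported HMGA targets and partners 16 were tested, with 3 higher and 1 lower (25% against 11.0%, median 0.05). The cell-cycle inhibitor CDKN1A rose from 3.52 ± 0.823 to 7.43 ± 0.108 FPKM (1.08, adjusted p = 0.00251), CDKN2A by 0.52 (adjusted p = 0.00397) and the mesenchymal factor TWIST1 by 0.46 (adjusted p = 0.00654), while E2F1, also an IGF2BP client, was the gene that fell. SOX2, the neural stem cell factor, was at -0.23 (adjusted p = 0.0526) and ID2 at -0.07.

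Other oncofetal and stem cell RNA-binding genes were mostly below the filter on low values. Of 29 genes 13 reached the filter, 4 fell and none rose, or 30.8% against 11.0% of all tested genes. This share and the median of -0.24 include MSI1 itself. DAZL, DPPA4, DPPA5 and L1TD1 were at 0 in all libraries. Besides MSI1 and PEG10, CELF2, a splicing and stability regulator, fell from 10.2 ± 0.651 to 5.66 ± 0.290 FPKM (log2 fold change -0.83, adjusted p = 0.000599). PUM2, a 3′UTR-binding repressor, was at -0.14 (adjusted p = 0.402) and QKI, a regulator of splicing, at 0.03, and neither passed. Over all 8 lists, which share some genes, 24 of 133 distinct tested genes passed the threshold, 11 higher and 13 lower, or 18.0% against 11.0% of all tested genes. The median log2 fold change of the 133 was -0.07. The 13 lower genes include MSI1, the target of the siRNA, and CD44, the transcript the study centers on. The lists were also chosen with earlier results of these data known, so nothing is read from the shares of these lists. Leaving out any 1 library but the third siMSI1 replicate left 10 to 13 listed genes past the threshold, and leaving out that one left 20. Each such fit has fewer libraries and no share over all genes is given for it. The smaller sample and the choice of library therefore cannot be told apart.

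**Figure D5:**
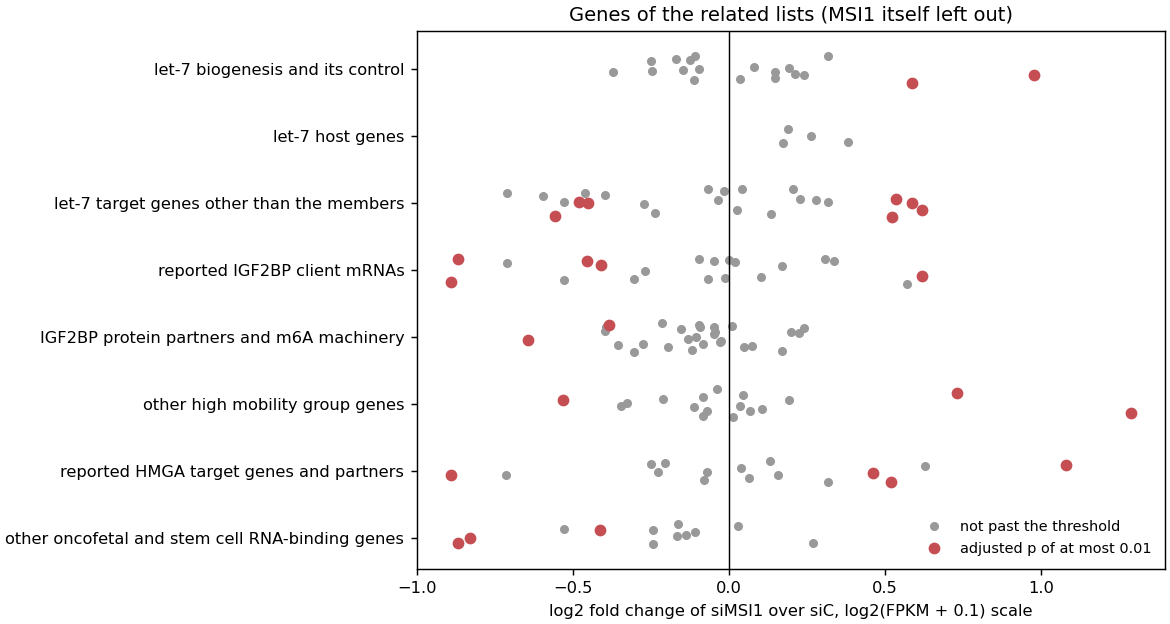
Log2 fold change of siMSI1 over siC for the tested genes of the 8 lists, 1 point per gene with a vertical offset for legibility; red points have an adjusted p of at most 0.01 and MSI1 is left out. Red points lie on both sides of 0 for let-7 targets, IGF2BP clients, other HMG genes and HMGA targets, and no let-7 host gene passed.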

How the data were processed

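The authors clipped reads with cutadapt 1.14, aligned them to GRCh38 with HISAT2 2.1.0, counted them per gene with featureCounts 1.5.3 on an Ensembl annotation and scaled libraries by TMM in edgeR 3.18.1. They deposited FPKM per gene and library beside their own fold changes and p-values, which were not used. FPKM times gene length gave whole reads for 100% of values (within 0.05 reads), with 13087025 to 18024080 reads per library; voom on these reads called 2815 genes (18.7%), against 1655 (11.0%) in the FPKM test. Genes averaging at least 0.5 FPKM (15069) were tested on log2(FPKM + 0.1) with limma 3.58.1 (R 4.3.3, trended and robust eBayes, two-sided, Benjamini-Hochberg over all tested genes, threshold 0.01), checked on simulated data. No label says whether replicates were separate cultures, so p-values measure the spread between libraries. The LIN28B interval and the floors of 3 reads cover counting error only, while the limma intervals reflect the spread between libraries. The members and lists were chosen with earlier results of these data known. From each list the text names up to 6 genes past the threshold, by size of change, and up to 2 others by mean FPKM; 2 genes that this rule selects are not reported here. Gene positions and 3′UTRs came from GENCODE 44 on GRCh38, where all 7 genes were found. The count of let-7 matches over all annotated transcripts was added after seeing the data. Alternatives were other added values, filters, scalings, variance moderation, a replicate block, voom and leaving out each library.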

Additional observations from a re-analysis of the deposited data

How the results depend on the processing

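No member passed the threshold under the deposited scaling, other added values, filters or scalings, plain eBayes, the replicate block alone or without any 1 library. The count was 1, HMGA1, with voom on recovered reads, with voom and the replicate block, and at an adjusted p of at most 0.05. Deviations of libraries with equal replicate numbers correlated at -0.0661, 0.0784 and 0.0830, all under the cut-off of 0.1 set for pairing. Those with unequal numbers correlated at -0.144 to 0.0700. These values do not settle whether replicate numbers pair the libraries. With the replicate block HMGA1 stood at 0.45 (log2, adjusted p = 0.0119, limma) and 27 listed genes were called. Of the listed genes 24 were called as reported, 13 without a filter, 12 with plain eBayes, 31 with voom, 62 with voom and the replicate block, and 10 to 20 without 1 library. Calls over all tested genes moved too, from 11.0% as reported to 18.7% with voom. Those called higher went from 8.67% with voom to 16.2% with voom and the block. For the other settings no share over all genes is given, so the counts are no trait of the lists. The cause of these shifts was not tested. IGF2BP1 changed sign without the second siMSI1 replicate (log2 fold change 0.018, range without 1 library -0.11 to 0.018), and IGF2BP3 without the third (0.010, range -0.13 to 0.010), while IGF2BP2 kept its sign but ranged from -0.24 without siC replicate 3 to -0.0097 without siC replicate 1. HMGA1 was above 0 in all 16 alternatives. Differences in paralog share changed sign when 1 library was left out, with ranges of -0.62 to 2.17 percentage points for IGF2BP1, -2.55 to 1.13 for IGF2BP2 and -1.21 to 3.17 for IGF2BP3. The 7-base let-7 matches numbered 12 in the longest 3′UTRs, 9 for transcripts with the longest coding sequence and 16 over all transcripts. Depth limits LIN28A, LIN28B and HMGA2, with at most 7 reads per library, and the IGF2BPs, with 83 to 577.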

Other observations

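The 3′UTRs were also searched, after the data had been seen, for GUAGU and AUAGU, short words that MSI1 is known to prefer. In the longest annotated 3′UTR of each gene the words together occurred 1.98 times per kilobase in LIN28B, 1.86 in IGF2BP3, 1.75 in HMGA2, 0.917 in LIN28A, 0.833 in IGF2BP2, 0.742 in HMGA1 and 0.597 in IGF2BP1. The median of 3′UTRs of like length was, in the same order, 1.60 for LIN28B, 1.46 for IGF2BP3, 1.79 for HMGA2, 1.5 for LIN28A, 1.47 for IGF2BP2, 0.897 for HMGA1 and 1.77 for IGF2BP1, so that LIN28B and IGF2BP3 lay above their median and the other 5 below it. At least 1 such word is present in 69.7% of the 11281 3′UTRs of tested protein-coding genes. A match of this kind is a description of the sequence and says nothing about binding.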
